A study of Mus musculus with 59 samples.

Results

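The extracellular matrix genes described here are the collagen chains, the laminin chains, the matrix metalloproteinases (Mmp), their tissue inhibitors (Timp), and the Adamts proteases with their Adamts-like relatives. Members were chosen by symbol from a table of 24346 gene symbols, and 106 symbols matched these families. Of these, 60 had a mean of at least 0.5 FPKM over all 59 libraries and are the members. FPKM is a fragment count divided by transcript length and by library size, so levels can be set side by side between genes. The members just inside the limit were Adamts17 at a mean of 0.515 FPKM, Lama1 at 0.515, Adamtsl2 at 0.579 and Col5a3 at 0.605. Those just outside it were Adamts8 at 0.491, Col5a2 at 0.467, Col12a1 at 0.459 and Col8a2 at 0.428. Among the 46 matching symbols under the limit, 17 had a mean under 0.1 FPKM and 2 were listed at 0 in every library.

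The tissue was the VTA (ventral tegmental area) of male mice, a midbrain region with many dopamine neurons. Cocaine, which blocks the dopamine transporter, and saline were compared in 4 paradigms. Acute injection in the home cage gave 5 cocaine and 6 saline libraries, chronic injection in the home cage 6 and 6, conditioning 6 and 6, and intravenous self-administration 15 and 9. Strain, age, dose and the time of tissue collection were not given in the sources used here. Nothing in the labels ties each library to an animal of its own. The p-values therefore rest on the spread between libraries, which may be technical.

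In the brain, fibrillar collagens are made mainly by fibroblasts of the meninges and of larger vessels. Type IV collagen and laminins form the basement membrane around the capillary endothelium, and astrocyte endfeet rest on its outer face. Between neurons the matrix is rich in lecticans, proteoglycans that several Adamts proteases cleave. Metalloproteinases of the Mmp family cut matrix and surface proteins, and Timp proteins block them by binding the zinc site.

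Sequences are shown for the proteases and the collagens. The first set is shown because 1 codon pattern over 33 bases was found in every Mmp and Adamts member and in none of the Adamts-like genes. They are read from the GENCODE M21 transcripts of the mouse assembly GRCm38, and the capitals mark the codons of the 3 histidines and the glutamate of the zinc-binding motif. Each line runs 5′ to 3′ along the coding strand.
Mmp14, chr14:54437627-54437659, plus strand, exon 5: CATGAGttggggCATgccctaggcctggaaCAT
Mmp15, chr8:95368585-95368617, plus strand, exon 5: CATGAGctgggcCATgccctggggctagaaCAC
Mmp17, chr5:129596597-129596629, plus strand, exon 5: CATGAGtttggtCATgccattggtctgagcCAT
Adamts1, chr16:85799191-85799545, minus strand, exons 3 and 4: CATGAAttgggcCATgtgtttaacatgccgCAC
Adamts4, chr1:171253210-171253915, plus strand, exons 3 and 4: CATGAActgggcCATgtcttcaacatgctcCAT
Adamts15, chr9:30911255-30911690, minus strand, exons 2 and 3: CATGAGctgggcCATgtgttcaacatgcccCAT
Adamts2, chr11:50775403-50776134, plus strand, exons 7 and 8: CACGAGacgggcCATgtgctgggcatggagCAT

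All 10 Mmp and all 13 Adamts members held this run once, and 0 of the 4 Adamts-like members did. Over 13000 tested genes with a complete coding sequence, 54 (0.415%) held it. It lay within 1 exon in each Mmp member and was split between 2 exons in each Adamts member. The eighth codon was a glycine codon in 10 of 10 Mmp and in 8 of 13 Adamts members. It was an asparagine codon in the other 5, Adamts1, Adamts4, Adamts9, Adamts15 and Adamts20. The runs of Mmp14 and Mmp15 were alike at 27 of 33 bases, those of Adamts1 and Adamts15 at 28, and those of Mmp14 and Adamts1 at 20.

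The second set shows the collagen repeat, in which glycine recurs at the head of each triplet of residues, in a fibrillar, a basement membrane and a transmembrane collagen. The capitals mark the glycine codons at the start of the longest unbroken run of each gene.
Col11a2, chr17:34051274-34051497, plus strand, exons 14 and 15: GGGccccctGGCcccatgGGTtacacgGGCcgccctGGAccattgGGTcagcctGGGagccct
Col4a1, chr8:11247051-11267614, minus strand, exons 2 and 3: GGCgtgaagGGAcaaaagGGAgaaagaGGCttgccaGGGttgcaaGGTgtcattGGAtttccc
Col25a1, chr3:130476369-130476431, plus strand, exon 9: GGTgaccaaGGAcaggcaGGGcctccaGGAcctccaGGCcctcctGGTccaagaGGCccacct

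The longest unbroken run was 338 triplets in Col11a2 and between 217 and 344 in the 7 fibril-forming collagens. It was 40 in Col4a1 and in Col25a1. The repeat of Col4a1 was broken into 18 runs of at least 10 triplets and that of Col25a1 into 6. Runs of at least 10 triplets were present in 22 of 22 collagen members and in 0.4% of the 13000 coding sequences.

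The inhibitors were the most abundant members. Over all libraries, the mean level was 201 FPKM for Timp2, 43.6 for Timp3 and 39.0 for Timp4. Timp2 also takes part in the activation of Mmp2 on the cell surface, Timp3 is held in the matrix, and Timp4 is known from astrocytes in the brain. None of the 60 members was listed at 0 in any library, and 42 had a mean of at least 1 FPKM.

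The metalloproteinases most abundant in the VTA were of the membrane-bound kind: Mmp17 at a mean of 14.1 FPKM, Mmp15 at 11.3 and Mmp24, known from neurons, at 8.94. Mmp14, the membrane protease that activates Mmp2, averaged 5.14 FPKM. The median over the 10 Mmp members was 2.53 FPKM. In the Adamts family the lectican-cleaving Adamts4 averaged 15.1 FPKM and the procollagen-processing Adamts2 10.6, against a median of 1.75 over 13 members. Among the Adamts-like genes, which have no catalytic domain, Adamtsl4 was highest at 5.92 FPKM.

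Among the structural genes Col25a1, a transmembrane collagen of neurons, averaged 17.9 FPKM and was the 1 collagen above 10 FPKM. The basement membrane chains Col4a2 and Col4a1 averaged 5.85 and 4.74 FPKM, and the most abundant laminins were the gamma chain Lamc1 at 5.72 and the beta chain Lamb2 at 4.91. The class medians were 1.26 FPKM for fibril-forming collagens, 1.28 for network and basement membrane collagens, and 1.59 for laminins. The main chains of fibrillar collagen were near this level, with Col1a2 at 2.03 FPKM and Col1a1 at 1.26. The most abundant fibril-forming collagens were Col11a2 at 3.65 FPKM and Col11a1 at 3.44. Col4a1 and Col4a2 start head to head on chromosome 8, and by annotation their first 22 bases overlap, so reads there cannot be assigned without strand.

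**Figure D1:**
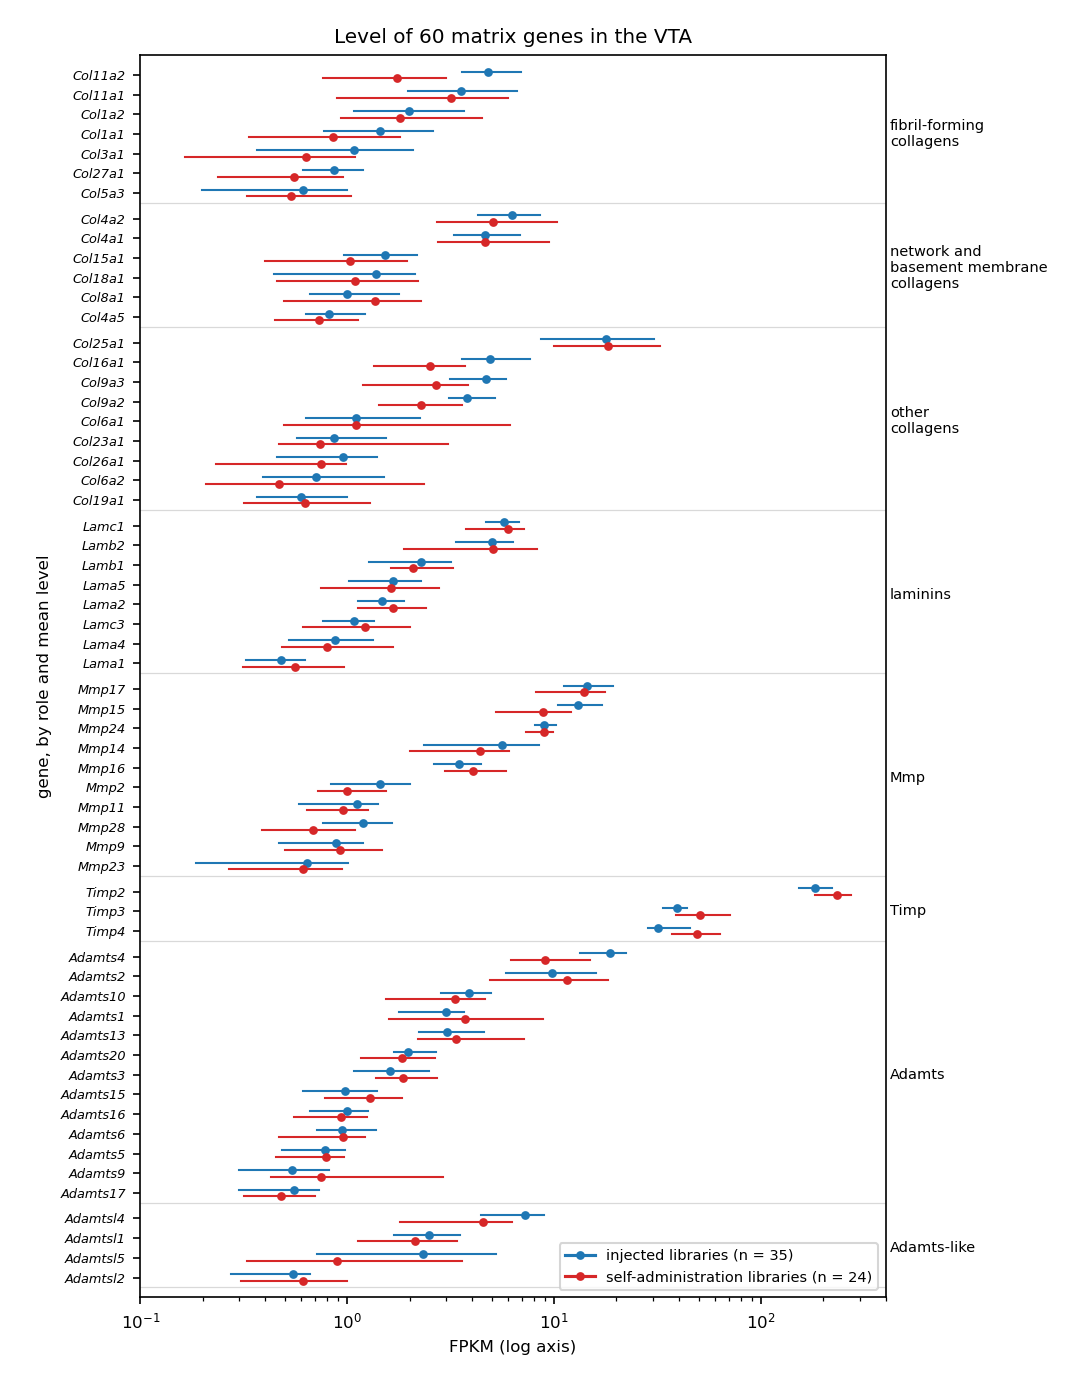
Each row is 1 of the 60 members, ordered by role and mean level, and the horizontal axis is FPKM on a log scale. Points are medians and lines run from the lowest to the highest library, in blue for the 35 injected and in red for the 24 self-administration libraries. Timp2 lies to the right of all other members, and the red Col11a2 line does not meet the blue one.

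All 59 libraries carried the dopamine neuron markers of the VTA, with group medians from 173 to 373 FPKM for the dopamine transporter Slc6a3. The spread of Slc6a3 within a group ran from 238 to 461 FPKM in acute saline and from 107 to 457 in acute cocaine. Library sums of FPKM ran from 398577 to 457508, and the read depth is unknown. Self-administration libraries differed from the injected ones at 56.9% of all tested genes in saline and at 59.1% in cocaine, and cocaine was therefore compared within a paradigm first.

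Acute cocaine was compared with acute saline to ask what a home cage injection does to these genes. No member passed an adjusted p of 0.05, and no gene of 14263 tested did. At an unadjusted p under 0.05, 2 of 60 members were higher and 0 lower, beside 2.18% of all tested genes higher, 1.73% lower and 3.91% in either direction. That count was 6 without acute saline library 1, 4 without acute cocaine library 1 or 4 or acute saline library 0, and 1 without acute cocaine library 3 or acute saline library 4. Differences are of log2(FPKM + 1), a scale that understates the change of low genes.

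Adamts1, a secreted protease that cleaves lecticans, had levels of 3.24, 3.17, 2.71, 3.18 and 3.66 FPKM in the 5 acute cocaine libraries. In the 6 acute saline libraries it ran from 2.25 through a median of 2.38 to 2.99 FPKM. All 5 cocaine libraries were above the saline median, and 1 of them lay within the saline range. The difference was 0.27 ± 0.07 (SE), with a limma p of 0.00198 and an adjusted p of 0.985.

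Lamc1, the gamma chain of most laminins, had 6.13, 5.38, 5.45, 6.23 and 6.10 FPKM after acute cocaine. The acute saline libraries ran from 4.85 through a median of 5.49 to 5.57. The groups overlapped, with 3 of 5 cocaine libraries above the saline median. The difference was 0.12 ± 0.05 (limma adjusted p = 0.985).

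Col25a1 had the widest acute difference of any member, at -0.44 ± 0.22 (limma p = 0.0724, adjusted p = 0.985). Its levels were 21.3, 20.5, 11.5, 13.2 and 8.90 FPKM in the acute cocaine libraries and 15.1 to 25.5 in saline. In the same 5 libraries Slc6a3 was at 457, 421, 145, 173 and 107 FPKM. The 3 cocaine libraries low in Col25a1 were the 3 low in Slc6a3, and the 8 dopamine neuron markers all had lower group means after acute cocaine. The part of dopamine neuron content in the Col25a1 difference was not tested, and in bulk tissue fewer cells of a type and less RNA per cell cannot be told apart.

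Vessel and fibroblast markers were on the higher side in this comparison. Of 10 pericyte and smooth muscle markers 9 had positive differences, 3 of them at an unadjusted p under 0.05, and so had 9 of 10 endothelial and 8 of 8 tested fibroblast markers, 0 of them at that p. Their part in the Lamc1 difference was not tested.

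Chronic cocaine gave differences mostly of 1 sign. No member passed an adjusted p of 0.05, but 8 of 60 were lower and 0 higher at an unadjusted p under 0.05, beside 3.27% of all tested genes lower, 3.94% higher and 7.21% in either direction. The 8 were the fibril-forming Col11a2, Col1a1, Col3a1 and Col11a1, the basement membrane chains Col4a1 and Col15a1, and the proteases Mmp14 and Mmp23. Of the 60 differences, 49 were negative, with a median of -0.07, against 7066 of 14263 negative and a median of 0.00 over all tested genes. All 7 fibril-forming collagens, all 6 network and basement membrane collagens and all 8 laminins had negative differences.

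Mmp14 ran from 2.36 through a median of 4.15 to 4.99 FPKM after chronic cocaine and from 4.71 through 5.17 to 6.77 after chronic saline. All 6 cocaine libraries were below the saline median, and the groups overlapped between 4.71 and 4.99. The difference was -0.40 ± 0.12 (limma p = 0.0067, adjusted p = 0.543).

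Col11a2, a chain of the minor fibrillar collagen XI, ran from 3.68 through 4.31 to 4.92 FPKM after chronic cocaine and from 4.57 through 5.63 to 6.64 after chronic saline. Each cocaine library was below the saline median. The difference was -0.28 ± 0.09 (limma p = 0.00494, adjusted p = 0.508). Its partner chain Col11a1 had a difference of -0.31 ± 0.14 (limma p = 0.0484, adjusted p = 0.687), with 5 of 6 cocaine libraries below the saline median.

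Col1a1, a chain of the main fibrillar collagen, ran from 0.775 through 1.23 to 1.83 FPKM after chronic cocaine and from 1.31 through 1.66 to 2.16 after chronic saline. The difference was -0.29 ± 0.11 (limma adjusted p = 0.647). Col3a1, which forms fibrils together with type I collagen, differed by -0.23 ± 0.10 (limma adjusted p = 0.669). All 6 cocaine libraries were below the saline median for Col3a1, and 5 of 6 were for Col1a1.

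Col4a1 ran from 3.26 through 3.80 to 4.22 FPKM after chronic cocaine and from 3.76 through 4.41 to 4.74 after saline, a difference of -0.16 ± 0.06 (limma adjusted p = 0.662). Its partner Col4a2 differed by -0.22 ± 0.10, with a limma p of 0.051. Col15a1, a basement membrane collagen, had a difference of -0.18 ± 0.08 (limma adjusted p = 0.687). Every chronic cocaine library was below the saline median for Col4a1 and Col15a1.

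These counts moved with single libraries. The number of members at an unadjusted p under 0.05 was 2 without chronic cocaine library 3, 3 without chronic saline library 1, 4 without chronic cocaine library 5 or chronic saline library 0, and 5 without chronic cocaine library 1 or chronic saline library 2.

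Genes outside the families that make, bind or surround this matrix were divided by list after chronic cocaine. Of 17 tested collagen processing genes, 12 had negative differences and 2 an unadjusted p under 0.05: the collagen chaperone Serpinh1 at -0.28 ± 0.11 (limma adjusted p = 0.63) and the prolyl hydroxylase P4ha1 at -0.26 ± 0.11 (limma adjusted p = 0.67). Among 16 tested matrix receptors 13 were negative, with the laminin-binding integrins Itga6 at -0.19 ± 0.05 and Itga7 at -0.27 ± 0.09. The 10 tested basement membrane partners were mixed, 4 positive and 6 negative. Lecticans and their partners were mixed too, with 5 of 8 tested genes positive and 3 negative. At an unadjusted p under 0.05, 1 of them was lower and 0 higher. Protease activators and inhibitors outside the families were also mixed, with 8 of 13 positive and 5 negative. Of these, 2 were lower at that p and 0 higher.

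Markers of several cell types were on the lower side, and those of others on the higher side or evenly divided. Of 10 endothelial markers 7 were negative after chronic cocaine, 5 of them at an unadjusted p under 0.05. They were led by the tight junction gene Cldn5 at -0.33 ± 0.08 (limma adjusted p = 0.44). The other 3 were positive, 1 of them at that p. All 10 pericyte and smooth muscle markers were negative, 1 of them at that p, Rgs5 at -0.26 ± 0.10. Their summed level ran from 44.6 to 72.7 FPKM in cocaine and from 62.7 to 68.5 in saline, and that of the endothelial markers from 183 to 222 and from 195 to 222. The 8 tested fibroblast markers gave 7 negative differences and 0 at that p. Of 8 astrocyte markers 5 were negative, 3 of them at that p: Gja1 at -0.17 ± 0.05, Agt at -0.24 ± 0.10 and Aqp4 at -0.36 ± 0.15. Their summed level ran from 427 to 567.6 FPKM in cocaine and from 520 to 622 in saline. Of 8 hypothalamic and mammillary markers 7 were negative, 1 of them at that p, Foxb1 at -0.46 ± 0.15. Higher values prevailed in other lists. Positive differences were found for 7 of 8 dopamine neuron and 6 of 8 oligodendrocyte markers, 0 of them at that p. So they were for 5 of 8 microglial markers, 1 of them at that p, and for 3 of 4 red blood cell genes. General neuron markers were 3 positive and 3 negative, and choroid plexus and ependyma markers 2 and 2. None of these lists had a marker at 0 throughout, and their part in the collagen and laminin differences was not tested.

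Conditioning with cocaine against conditioning with saline put 10 of 60 members past an unadjusted p of 0.05, beside 8.15% of all tested genes, and 0 past an adjusted p of 0.05. Of the 10, 3 were higher, all from the Adamts and Adamts-like families, and 7 were lower, beside 3.76% of all tested genes higher and 4.39% lower. The lower ones were Mmp17, Mmp23, Adamts2, Adamts15, Col8a1, Col18a1 and Col27a1. The median over the 60 members was -0.02, and all tested genes had a median of 0.00. Without conditioning saline library 2 the count was 6.

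Mmp17, the most abundant metalloproteinase here, ran from 11.2 through 13.3 to 14.6 FPKM after cocaine conditioning and from 14.2 through 15.8 to 16.8 after saline conditioning. All 6 cocaine libraries were below the saline median. The difference was -0.22 ± 0.06 (limma p = 0.00342, adjusted p = 0.594). Adamts2, which trims procollagen, ran from 6.03 through 7.75 to 9.47 FPKM and from 8.65 through 9.71 to 11.5. Its difference was -0.30 ± 0.10 (limma adjusted p = 0.594), again with all 6 cocaine libraries below the saline median.

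The network collagen Col8a1, of vessel walls and corneal membranes, ran from 0.763 to 0.911 FPKM in cocaine and from 0.879 to 1.53 in saline, so the groups met only between 0.879 and 0.911. Its difference was -0.19 ± 0.07 (limma adjusted p = 0.594). Mmp23 differed by -0.25 ± 0.09 and Adamts15, another lectican-cleaving protease, by -0.22 ± 0.08, both with a limma adjusted p of 0.594. Each of these 3 was below the saline median in 6 of 6 cocaine libraries.

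Adamts1 was on the higher side again, as in acute. In chronic, in self-administration and with the 4 paradigms fitted together it had no unadjusted p under 0.05. After cocaine conditioning it held between 3.03 and 3.18 FPKM in all 6 libraries, and after saline conditioning it ran from 1.77 through 2.71 to 3.04. All 6 cocaine libraries were above the saline median, and the difference was 0.21 ± 0.08 (limma adjusted p = 0.594). Adamtsl4, a microfibril-binding protein, ran from 7.37 through 7.72 to 8.93 FPKM in cocaine and from 4.43 through 7.26 to 7.60 in saline, a difference of 0.26 ± 0.11 (limma adjusted p = 0.594). Adamts3, a procollagen protease like Adamts2, differed by 0.21 ± 0.09 (limma adjusted p = 0.595), opposite in sign to Adamts2. In the same comparison 6 of 8 astrocyte markers had negative differences, with 3 lower and 1 higher at an unadjusted p under 0.05. The 3 were Gja1 at -0.13 ± 0.05, Slc1a3 at -0.28 ± 0.10 and Gfap at -0.73 ± 0.28 (limma adjusted p = 0.594 each), and the summed level of the list ran from 492 to 549 FPKM in cocaine and from 531 to 647 in saline. All 8 tested fibroblast markers and all 8 microglial markers had negative differences, 0 and 3 of them at an unadjusted p under 0.05, and 7 of 8 oligodendrocyte markers had positive ones. All 8 dopamine neuron markers were negative, 1 of them at that p, and so were 6 of 8 hypothalamic and mammillary markers. Endothelial markers were 8 positive and 2 negative, and pericyte and smooth muscle markers 7 and 3. Each of these 2 lists had 1 marker higher at that p and 0 lower. Their part in the members' differences was not tested.

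Self-administered cocaine against self-administered saline gave 2 of 60 members at an unadjusted p under 0.05, beside 3.53% of all tested genes (1.76% higher and 1.77% lower), and 0 past an adjusted p of 0.05. Adamts13, the protease that cleaves von Willebrand factor, ran from 2.31 through 3.70 to 7.18 FPKM in 15 cocaine libraries and from 2.20 through 2.60 to 3.64 in 9 saline libraries. In 13 of 15 cocaine libraries it was above the saline median. The difference was 0.28 ± 0.11 (limma p = 0.0162, adjusted p = 1). Adamts15 ran from 0.782 through 1.22 to 1.76 FPKM in cocaine and from 1.17 through 1.44 to 1.83 in saline, with 12 of 15 cocaine libraries below the saline median. Its difference was -0.14 ± 0.07 (limma p = 0.0469, adjusted p = 1). The count of 2 ranged from 1 to 9 when single libraries were left out, and was 9 without self-administration saline library 2. All 8 astrocyte markers had negative differences, 0 of them at an unadjusted p under 0.05. Endothelial markers were 9 positive and 1 negative, 1 of them higher at that p. Hypothalamic and mammillary markers were 1 positive and 7 negative. Lower at that p were Pmch at -2.34 ± 0.76 and Hcrt at -1.39 ± 0.48. The part of these cells in the members' differences was not tested.

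**Figure D2:**
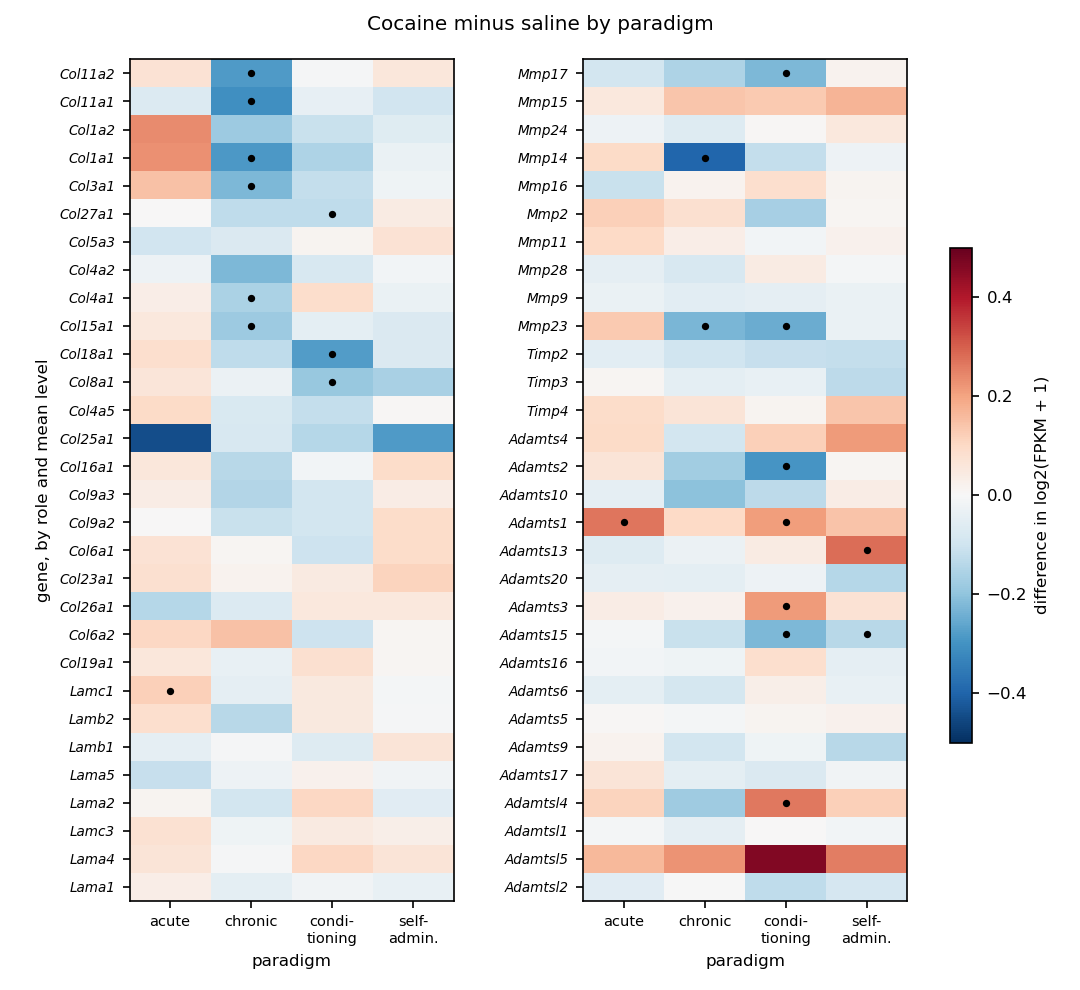
Colour gives the cocaine minus saline difference in log2(FPKM + 1) for each of 60 members (rows, by role and mean level) in 4 paradigms (columns), red where cocaine was higher, and dots mark an unadjusted p under 0.05. The chronic column is blue for 49 of 60 members, and Adamts1 has dots in the acute and conditioning columns.

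With the 4 paradigms fitted together, the average cocaine effect put 10 members past an unadjusted p of 0.05, beside 12.6% of all tested genes. Of the 10, 4 were higher and 6 lower, beside 6.24% and 6.34% of all tested genes. At an adjusted p of 0.05 there were 0 members, beside 0.00701% of all tested genes, 1 gene that was lower. The 3 inhibitors were all among the 10. Timp2 differed by -0.10 ± 0.04 (limma adjusted p = 0.256), Timp3 by -0.07 ± 0.03 (limma adjusted p = 0.375) and Timp4 by 0.09 ± 0.04 (limma adjusted p = 0.341). Timp2 had a negative difference in each of the 4 paradigms, from -0.05 ± 0.07 in acute to -0.12 ± 0.06 in self-administration. Timp4 had a positive one in each, from 0.01 ± 0.08 in conditioning to 0.14 ± 0.08 in self-administration. The 8 astrocyte markers all had negative average differences, 3 of them at an unadjusted p under 0.05. Timp2 and Timp3 shared their sign and Timp4 did not. The part of astrocyte content in these differences was not tested.

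Adamts15 had the smallest p of the average effect, with a difference of -0.13 ± 0.04 (limma p = 0.00272, adjusted p = 0.256). Mmp15, a membrane-bound metalloproteinase, was on the higher side at 0.13 ± 0.05 (limma adjusted p = 0.271), with positive differences in the 4 paradigms from 0.05 ± 0.06 to 0.17 ± 0.09. Adamtsl5 averaged 0.27 ± 0.11 (limma adjusted p = 0.311), and Col25a1 -0.24 ± 0.11 (limma adjusted p = 0.338). The remaining 3 were Adamts3 on the higher side, and Adamtsl2 and Adamts20 on the lower. All 8 dopamine neuron markers also had negative average differences, 0 of them at an unadjusted p under 0.05. The part of dopamine neuron content in the average Col25a1 difference was not tested.

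Whether the cocaine effect itself differed between paradigms was tested by a moderated F test. One member, Mmp23, had an unadjusted p under 0.05 (limma p = 0.0204, adjusted p = 1), beside 1.53% of all tested genes. Its cocaine levels ran from 0.563 to 0.785 FPKM in acute against 0.397 to 0.644 in acute saline. In chronic they ran from 0.186 to 0.647 against 0.420 to 1.00, and in conditioning from 0.244 to 0.752 against 0.536 to 0.946. Cocaine was thus on the higher side in acute and on the lower side in chronic and conditioning. The opposite signs of Col1a1, with cocaine medians of 2.07 FPKM in acute and 1.23 in chronic, gave a limma p of 0.0778 (adjusted p = 1) in the same test. The 3 injected saline groups differed at an unadjusted p under 0.05 for 0 of 60 members, beside 3.2% of all tested genes, and the smallest limma p was 0.0508, for Timp4 (adjusted p = 1). At an adjusted p of 0.05 there were 0 members, beside 0.0561% of all tested genes. With array quality weights, 11 members had an unadjusted p under 0.05 and 2 an adjusted one. Beside them were 20.3% of all tested genes at the unadjusted p and 296 of 14263 at the adjusted one.

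**Figure D3:**
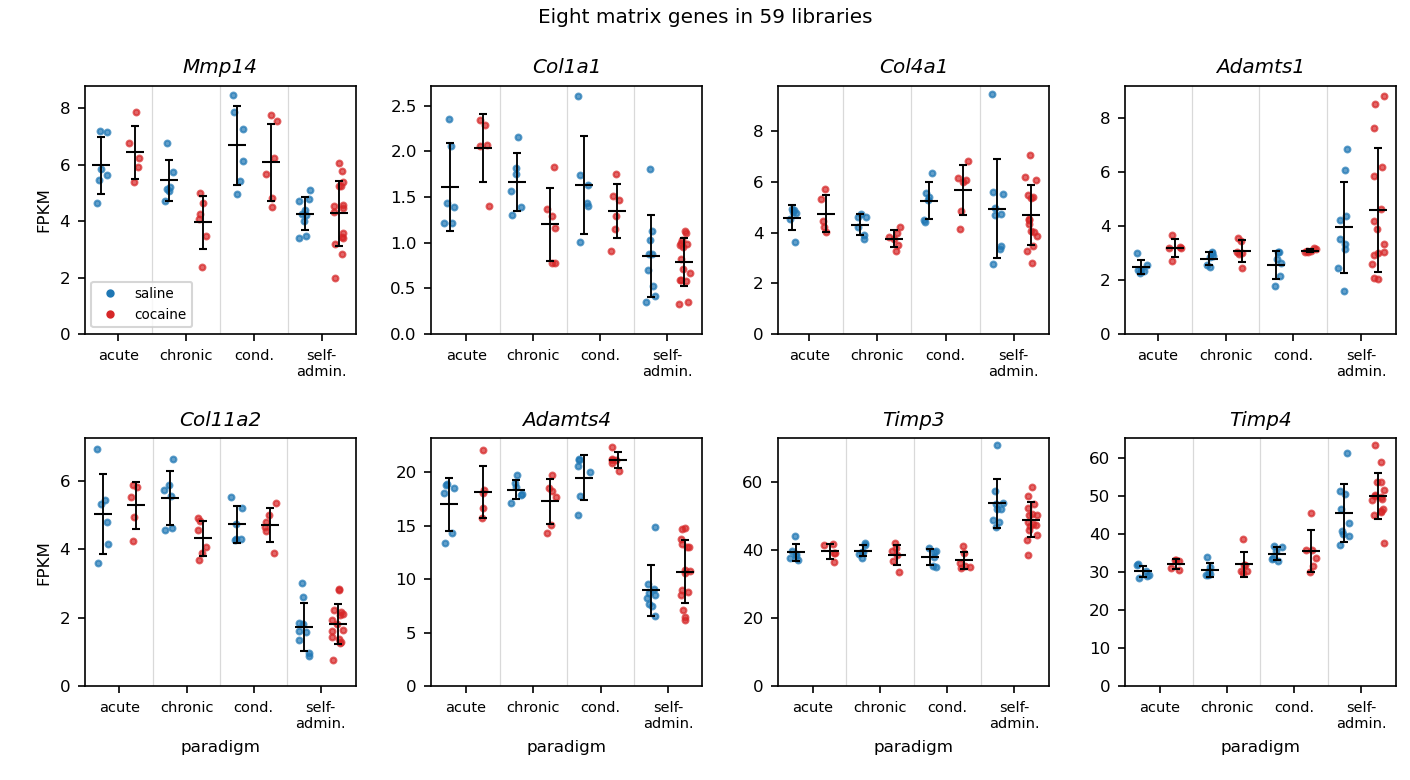
Each panel shows 1 gene in FPKM, with a point for each library, blue for saline and red for cocaine, in the 4 paradigms. Bars give the mean and SD of a group. Chronic cocaine points of Mmp14 lie between 2.36 and 4.99, all below the chronic saline median of 5.17, and all self-administration points of Col11a2 lie at or under 3.01.

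Self-administration libraries were set against the injected ones separately in saline and in cocaine. The contrast compares a procedure and also any difference in handling, sequencing or time between the sets, and these cannot be told apart. In saline, 9 of 60 members rose and 20 fell past an adjusted p of 0.05, beside 30.6% of all tested genes higher and 26.3% lower. In cocaine, 9 rose and 19 fell, beside 31.9% and 27.1%. In both contrasts 7 members were called higher and 16 lower, 23 of 60 together, beside 50.1% of all tested genes called alike in both.

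The 3 inhibitors rose in both contrasts. In saline, Timp4 ran from 37.0 through 42.8 to 61.2 FPKM in self-administration and from 28.4 through 31.7 to 36.9 in the injected groups, with no overlap. The difference was 0.49 ± 0.06 in saline (limma adjusted p = 2.17e-09) and 0.57 ± 0.05 in cocaine (limma adjusted p = 2.87e-13). Timp3 rose by 0.44 ± 0.05 in saline and 0.34 ± 0.04 in cocaine, and Timp2 by 0.39 ± 0.06 and 0.36 ± 0.05. In saline Timp3 did not overlap either, with a lowest self-administration value of 46.8 FPKM and a highest injected value of 44.0. Timp2 did overlap in saline. The share of all tested genes without overlap in saline alone was not computed. In cocaine the ranges of all 3 overlapped between the sets.

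The fibrillar collagens fell or did not pass, and none rose. Col11a2 ran from 0.874 through 1.62 to 3.01 FPKM in self-administration saline and from 3.59 through 5.00 to 6.93 in injected saline. In cocaine it ran from 0.760 through 1.82 to 2.85 and from 3.68 through 4.80 to 5.89. Every self-administration library was below every injected one, in both agents. The difference was -1.18 ± 0.10 in saline (limma adjusted p = 1.02e-14) and -1.05 ± 0.09 in cocaine (limma adjusted p = 3.17e-15). No other member separated the 24 from the 35 libraries, beside 1.6% of all tested genes below and 0.54% above without overlap.

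Col1a1 fell by 0.52 on the log2 scale in saline (SE 0.10) and by 0.49 in cocaine (SE 0.08), while its partner chain Col1a2 passed in neither contrast. Col3a1 and Col27a1 also fell in both. Of the fibril-associated collagens 3 also fell in both, while a further one, Col19a1, passed in neither. Col16a1 fell by 0.83 in saline (SE 0.11) and by 0.71 in cocaine (SE 0.09), Col9a3 by 0.72 and 0.62, and Col9a2 by 0.67 and 0.51.

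Basement membrane collagens were mixed. Col15a1 fell by 0.32 in saline (SE 0.09) and by 0.33 in cocaine (SE 0.07). In saline Col4a2 fell by 0.27 (SE 0.11, limma adjusted p = 0.0335) and the network collagen Col8a1 rose by 0.23 ± 0.09 (limma adjusted p = 0.021), and neither passed in cocaine. The difference between the agents was not tested for them. Col4a1 differed by 0.00 ± 0.10 in saline and -0.02 ± 0.09 in cocaine, with adjusted p-values of 0.977 and 0.894 by limma. Lamc1 differed by 0.04 ± 0.07 and -0.01 ± 0.06. Among the 8 laminins, Lama2 rose in both contrasts and Lama1 in saline, and none fell. Col25a1 passed in neither, at 0.18 ± 0.17 and 0.12 ± 0.15.

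Proteases were divided. Adamts4 fell most, from 13.4 through 18.5 to 21.2 FPKM in injected saline to 6.59 through 8.56 to 14.9 in self-administration saline. Its difference was -0.97 ± 0.10 in saline (limma adjusted p = 1.24e-11) and -0.80 ± 0.09 in cocaine (limma adjusted p = 5.39e-11). Mmp15 fell by 0.60 in saline (SE 0.08) and by 0.54 in cocaine (SE 0.07), and Mmp14, Mmp2 and Mmp28 also fell in both, while Mmp24 passed in neither. The Adamts-like genes Adamtsl1, Adamtsl4 and Adamtsl5 fell in both, Adamtsl5 by 0.81 (SE 0.18) and by 0.84 (SE 0.16).

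Adamts1, Adamts9 and Adamts15 went the other way. Adamts15 rose by 0.24 ± 0.06 in saline and 0.22 ± 0.05 in cocaine. Adamts1 rose by 0.39 ± 0.15 in saline (limma adjusted p = 0.0213) and 0.34 ± 0.13 in cocaine (limma adjusted p = 0.0202). Its self-administration libraries were widely spread, from 1.59 to 6.85 FPKM in saline and 2.03 to 8.84 in cocaine, against 1.77 to 3.66 over all injected libraries. The saline call on Adamts1 was lost without self-administration saline library 4 (0.30, limma adjusted p = 0.0811) or library 6 (0.31, limma adjusted p = 0.0706). The cocaine call was lost without self-administration cocaine library 12 (0.27, limma adjusted p = 0.0511) or 14 (0.27, limma adjusted p = 0.0522). Adamts9 rose by 0.30 ± 0.08 in saline, a value that was 0.17 without self-administration saline library 4 (limma adjusted p = 0.00965). Adamts13, which rose in cocaine by 0.20 ± 0.08, differed by 0.14 without self-administration cocaine library 2 (limma adjusted p = 0.0592).

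**Figure D4:**
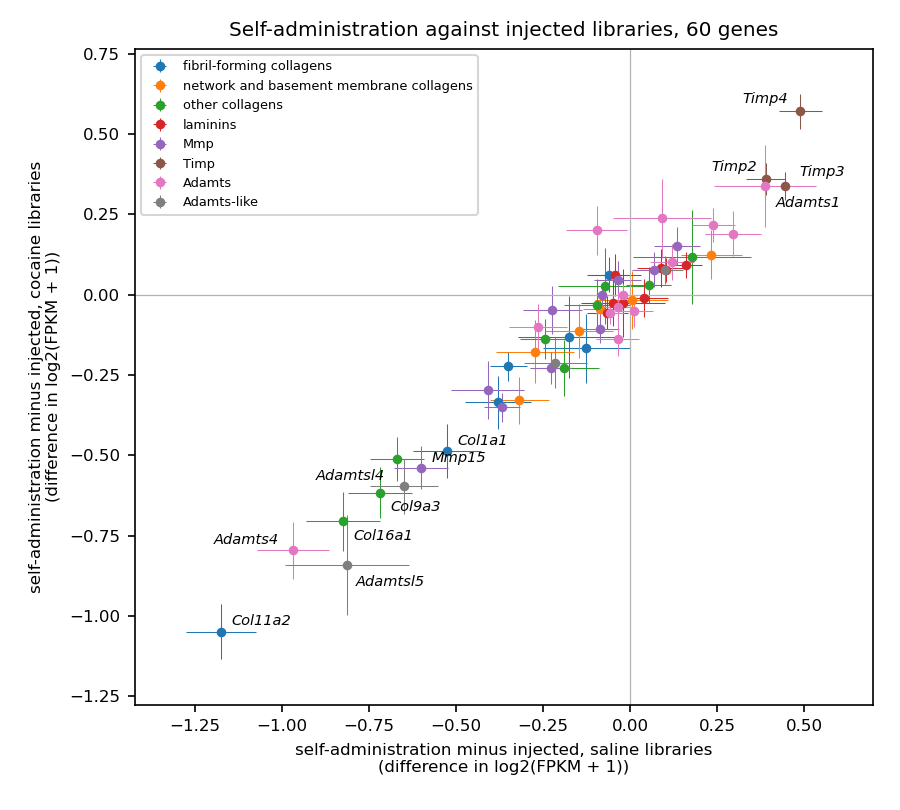
Each point is 1 of 60 members, with the self-administration minus injected difference in log2(FPKM + 1) for saline libraries on the horizontal axis and for cocaine libraries on the vertical axis. Bars are standard errors and colours give the role. Col11a2, Adamts4, Adamtsl5 and Col16a1 lie at the lower left and the 3 Timp genes at the upper right.

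Base composition moved with this contrast. In saline the 20 members that fell had a median transcript GC content of 58.7% and the 9 that rose 49.7%. Over all tested genes the medians were 54.6% for those lower and 47.4% for those higher. Marker genes of other cells moved as well. Of 8 oligodendrocyte markers, 6 fell and 1 rose in saline, and their summed level ran from 3641 to 8021 FPKM in self-administration saline and from 5533 to 8930 in the injected saline groups. Of 8 astrocyte markers 5 rose and 1 fell, with a summed level from 601 to 935 FPKM against 520 to 647. Further, of 8 microglial markers 7 fell, and of 4 red blood cell genes 3 rose and 1 fell. Of 10 endothelial markers 4 rose and 2 fell, Cldn5 by 0.63 (SE 0.13), and of 8 fibroblast markers none passed. Of 8 dopamine neuron markers 2 fell and none rose, Pitx3 by 2.58 (SE 0.26) and En1 by 1.12 (SE 0.25), with a summed level from 638 to 2301 FPKM in self-administration saline and from 616 to 2544 in the injected saline groups. Of 8 hypothalamic and mammillary markers 3 rose and 1 fell, with Pmch at 3.04 ± 0.58, Sim1 at 0.64 ± 0.13 and Lhx1 at -0.42 ± 0.07, and their summed level ran from 36.1 to 593 FPKM against 22.4 to 1436. The part of base composition or of these cells in the members' differences was not tested.

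Matrix genes outside the families were also divided in the saline contrast. The basement membrane proteins Sparc and Fn1 rose by 0.59 ± 0.05 and 0.68 ± 0.11, and 4 of 10 partners rose while 2 fell. Among 17 collagen processing genes 2 rose and 4 fell, with P4ha2 at 0.50 ± 0.06 and Serpinh1 at -0.60 ± 0.11. The lecticans that Adamts4 cleaves did not move together: Bcan fell by 0.38 (SE 0.08) and Vcan rose by 0.24 ± 0.06, with 5 of 8 genes of that list lower and 1 higher. Of 16 matrix receptors 3 rose and 5 fell, the collagen receptor Ddr1 by 0.79 (SE 0.09).

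Within groups, Col25a1, Col1a2 and Col4a1 were compared with markers of their presumed source cells. No member was paired with a marker of an unrelated cell, so whether a relation is particular to a cell type was not tested. Group means were removed, and 8 relations were computed in the injected and the self-administration libraries separately. Col25a1 followed Slc6a3 in 35 injected libraries with a Pearson r of 0.920 and a Spearman rho of 0.912, both with a permutation p of 1e-05, the smallest that 100000 resamples can give (adjusted p = 4e-05 and 8e-05). In 24 self-administration libraries r was 0.704 (permutation p = 0.00017, adjusted p = 0.000453) and rho 0.733 (permutation p = 5e-05, adjusted p = 0.0002). Without the 2 libraries farthest from the median of Slc6a3, r was 0.913 and 0.649.

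Col1a2 followed Dcn, a proteoglycan of fibroblasts, in the injected libraries, with r = 0.687 (permutation p = 1e-05, adjusted p = 4e-05) and rho = 0.613 (permutation p = 0.00012, adjusted p = 0.00032). Without the 2 farthest libraries r was 0.605. In self-administration libraries r was 0.518 (permutation p = 0.0107, adjusted p = 0.0142) and rho 0.355 (permutation p = 0.0906, adjusted p = 0.104), and r was 0.167 without the 2 farthest libraries, so that relation rests on them.

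Col4a1 followed the endothelial Cldn5, with r = 0.50 (permutation p = 0.00216, adjusted p = 0.00346) and rho = 0.475 (permutation p = 0.00497, adjusted p = 0.00994) in injected libraries, where r was 0.457 without the 2 farthest. In self-administration libraries r was 0.614 (permutation p = 0.00154, adjusted p = 0.00308) and rho 0.542 (permutation p = 0.00697, adjusted p = 0.0112), and r was 0.703 without them. With the pericyte gene Rgs5, r was 0.138 in injected libraries (permutation p = 0.426, adjusted p = 0.426), with rho 0.15 (permutation p = 0.386, adjusted p = 0.386) and 0.164 without the 2 farthest. In self-administration r was 0.501 (permutation p = 0.0129, adjusted p = 0.0147), rho was 0.459 (permutation p = 0.024, adjusted p = 0.032), and r was 0.395 without the 2 farthest.

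**Figure D5:**
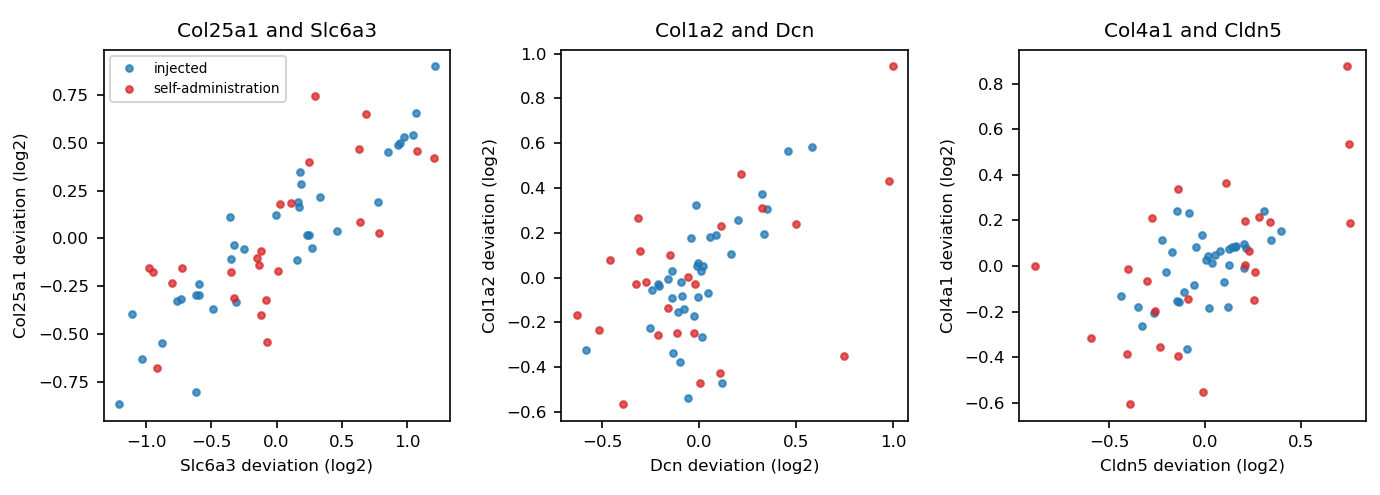
Each panel plots the deviation of 1 member from its group mean against that of 1 marker gene, both in log2(FPKM + 1), with a point for each of 35 injected (blue) and 24 self-administration (red) libraries. Col25a1 lies along a line with Slc6a3 (r = 0.920 in injected libraries), and the points of Col1a2 with Dcn and Col4a1 with Cldn5 scatter more widely.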

How the data were processed

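RNA sequencing values of 59 libraries were taken from 1 deposited table. The values that the authors deposited are FPKM, 1 for each symbol and column. They name Bowtie, Cuffnorm and the build mm10 (per the submitters' processing notes). Not given in the sources used here are the versions, the annotation, strand use and filters. FPKM keeps no read depth, and a bias in fragment length or GC can move many genes. Columns were mapped to groups by name. Their numbers, counted from 0, could not be tied to the labels' replicate numbers, so libraries are named by group and column number.

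Values were transformed to log2(FPKM + 1). The 14263 genes that averaged 0.5 FPKM or more were fitted in limma 3.58.1 (R 4.3.3, trend and robust options, two-sided), checked on simulated data. Paradigm comparisons used only their own libraries, and the other tests all 8 groups. Benjamini-Hochberg adjustment ran over all tested genes, with 0.05 as the threshold. Correlations used permutation tests. Coordinates and sequences are from GENCODE M21 (GRCm38), matched by symbol for all 60 members.

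Members and lists were chosen with earlier results of these data known. Named members were the 3 most abundant of each role, up to 5 with the smallest unadjusted p in each cocaine comparison, and the 6 largest per direction in each self-administration contrast. Col25a1 in acute, Col4a2 in chronic and further members listed after a count were named after their values were seen. Alternatives were another pseudocount, filter, scaling, variance estimate and library weighting, and leaving out each library.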

Additional observations from a re-analysis of the deposited data

Results flagged for a closer look

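In 238 groups of 4 to 10 libraries, formed by the named members, 17 had 1 library apart from the rest by Dixon's test at the 95% level. Chance flags about 1 in 20 groups.

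Self-administration saline library 4 stood apart for 5 members, on the high side each time. It held 4.49 FPKM of Col1a2 (group median 1.81), 9.45 of Col4a1 (4.72), 10.3 of Col4a2 (5.06), 71.0 of Timp3 (52.1) and 2.91 of Adamts9 (0.856). In the same saline group, library 6 was high in Lamb1 at 3.14 FPKM (2.07) and library 2 in Adamts4 at 14.9 FPKM (8.56).

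Chronic saline library 0 was high in Col11a1 at 5.82 FPKM (group median 3.82) and in Col16a1 at 7.60 (5.27). Chronic saline library 3 was high in Col1a2 at 3.61 FPKM (1.88) and in Col8a1 at 1.52 (0.966). Chronic cocaine library 2 was high in Timp4 at 38.6 FPKM (31.1).

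Acute saline library 4 was low in Col4a1 at 3.64 FPKM (group median 4.78). Acute saline library 5 was low in Col15a1 at 1.10 FPKM (1.61) and high in Timp3 at 44.0 (38.5). Conditioning saline library 3 was high in Col1a2 at 3.65 FPKM (2.04), and conditioning cocaine library 5 in Col9a2 at 4.20 FPKM (3.29).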

How the results depend on the processing

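No paired analysis was possible because the columns carry numbers that could not be tied to the labels' replicate numbers, so no fit with a replicate block was run. Sign and call were followed for 43 differences, named by p in a cocaine comparison or by size in a self-administration contrast. None of these reversed under another pseudocount, filter, scaling, variance estimate or library weighting, or with a library left out. The lost calls among them were the 5 given beside Adamts1 and Adamts13. Among them no cocaine difference passed the adjusted threshold, so none of those had a call to lose. With 1 library left out, some had an unadjusted limma p above the threshold. The highest p was 0.111 for Lamc1 in acute, and 0.0615 for Col1a1, 0.0687 for Col4a1 and 0.0718 for Col3a1 in chronic. It was 0.110 for Adamts15 in self-administration and 0.0551 for Col25a1 in the average effect. The other cocaine differences named by p stayed under that threshold. Other calls, such as those of Col4a2, Col8a1 and Lama1 in saline, were not followed singly. Leaving out a library took the members called from 29 in saline and 28 in cocaine to as few as 26, so some other calls were lost too.

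Counts of members at an unadjusted p under 0.05 did move. With array quality weights acute fell to 1 member and conditioning to 6, while self-administration went to 13, the 3 injected saline groups to 11 (2 past adjusted p) and the test between paradigms to 7. Those weights also put 22.7% of all tested genes past that p in self-administration and 20.3% in the injected saline groups. The shares were 3.95% in acute, 8.63% in conditioning and 9.35% in the test between paradigms. Past an adjusted p of 0.05, the injected saline groups had 296 of 14263 genes. With no filter acute gave 4, beside 4.09% of all tested genes. The injected saline groups gave 1 with a pseudocount of 0.1, 1 with median-ratio scaling and 2 with quantile normalization. Beside these stood 3.18%, 3.26% and 3.2% of all tested genes. The test between paradigms gave 0 at a mean of at least 1 FPKM, which drops Mmp23 as 1 of the 18 members left out. The causes of the others were not tested.

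Leaving out 1 library at a time gave 1 to 6 members in acute, 2 to 11 in chronic, 6 to 13 in conditioning, 1 to 9 in self-administration, 7 to 13 in the average effect, 0 to 1 in the injected saline groups and 1 to 2 in the test between paradigms. The 2 self-administration contrasts gave 26 to 30 members each at adjusted p.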
